A study of Homo sapiens with 6 samples.

Results

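The galectin genes examined here were the 10 genes LGALS1, LGALS3, LGALS3BP, LGALS4, LGALS7, LGALS8, LGALS9, LGALS9B, LGALS9C and LGALSL, chosen by name among the 33451 genes of the deposited table of counts. All 10 were listed, and 8 of them passed the low-count filter for testing. The samples were MDA-MB-453 cells, an established human breast cancer cell line, cultured for 5 days with 100 nM 25(OH)D, the main circulating vitamin D metabolite, or with the solvent alone, which was alcohol. Each group had 3 libraries of mRNA, and no other agent or genetic change separated the groups. All libraries came from this 1 cell line, and the study's methods call the replicates biological. The labels do not say whether the libraries of a group came from separate cultures, and p-values measure only the spread between these libraries. The LGALS9 genes were known from earlier results on these data to differ between the groups, and the list was drawn up with that known. Differences of all 10 genes, and the counts of those past a threshold, are therefore given as a description, with no p-value and in support of nothing.

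Galectins are small proteins that bind sugars containing galactose, and they act both inside the cell and, after leaving it by a route without a signal peptide, on glycoproteins at the cell surface. Galectin-1 (LGALS1) and galectin-7 (LGALS7) have a single sugar-binding domain, galectin-3 (LGALS3) joins one such domain to a long flexible tail, and galectin-4, galectin-8 and galectin-9 (LGALS4, LGALS8, LGALS9) carry a pair of domains in 1 chain. LGALS9B and LGALS9C are copies of LGALS9 on the same chromosome. LGALSL encodes a galectin-related protein that does not bind lactose, and LGALS3BP encodes a secreted glycoprotein that is a ligand of galectins and not itself a galectin. In epithelial cells galectin-3, galectin-8 and galectin-9 are known for gathering on damaged lysosomes, and galectin-9 is known as a ligand of the T cell receptor TIM-3.

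The library totals lay between 33268860 and 40928176 counts, so that 3 reads, used as a floor for computing folds, were worth between 0.0720 and 0.0921 CPM (counts scaled to the effective library size). The share of mitochondrial genes was 7.85% to 7.99% in control and 8.89% to 9.24% in 25(OH)D, and the part of this in the results below was not tested. All 12 markers of luminal epithelium were detected, with summed levels between 4962 and 5598 CPM, though TFF3 reached at most 0.720 CPM. Of 12 immune markers, 11 had at most 9 reads in any library. The exception was CD68, a lysosomal glycoprotein of macrophages that other cells also make, which rose from 4.93 ± 0.821 to 15.9 ± 3.18 CPM (SD, n = 3 each, log2 fold change 1.69, adjusted p = 8.16e-07, edgeR). The summed immune markers ranged up to 19.9 CPM in 25(OH)D, and their part in the galectin results was not tested. Of the stratified epithelium markers listed, SFN reached 471 CPM and KRT10 12.5 CPM, and the others had at most 26 reads in any library. COL1A1 reached 38.5 CPM among fibroblast markers and EGFL7 2.86 CPM among endothelial markers. The others listed in these panels had at most 16 and 20 reads, respectively.

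The galectin-9 genes lie apart on chromosome 17 of GRCh38. LGALS9C spans chr17:18476737-18494945 on the plus strand, LGALS9B chr17:20449395-20467539 on the minus strand and LGALS9 chr17:27629798-27649560 on the plus strand. The 250 bases before the start site of each gene (RefSeq, GRCh38.p14) are shown because the counts of these genes moved together and because the stretches are close copies. Those of LGALS9 cover chr17:27630938-27631187, those of LGALS9B chr17:20467540-20467789 on the minus strand and those of LGALS9C chr17:18476539-18476788. The RefSeq start site is not always the start of the counted span. The window of LGALS9 lies inside its counted span, and that of LGALS9C lies partly inside. Capitals mark the hexamers AGGTCA and AGTTCA, searched on both strands, which are the kind of letters that nuclear receptors such as the vitamin D receptor bind in pairs.
LGALS9: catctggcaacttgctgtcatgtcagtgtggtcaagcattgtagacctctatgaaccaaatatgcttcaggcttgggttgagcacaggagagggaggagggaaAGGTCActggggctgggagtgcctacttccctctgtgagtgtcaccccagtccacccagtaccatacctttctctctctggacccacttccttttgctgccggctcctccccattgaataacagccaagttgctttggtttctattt
LGALS9B: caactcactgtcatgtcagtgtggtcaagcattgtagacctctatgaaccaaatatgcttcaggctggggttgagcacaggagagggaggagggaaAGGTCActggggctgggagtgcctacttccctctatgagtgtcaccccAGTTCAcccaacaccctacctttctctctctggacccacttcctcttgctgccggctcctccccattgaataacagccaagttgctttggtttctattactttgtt
LGALS9C: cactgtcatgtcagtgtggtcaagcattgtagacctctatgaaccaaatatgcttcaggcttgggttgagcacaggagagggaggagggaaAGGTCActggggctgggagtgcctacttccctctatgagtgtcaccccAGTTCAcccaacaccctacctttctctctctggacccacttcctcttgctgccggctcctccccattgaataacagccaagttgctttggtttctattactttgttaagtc

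The stretches of LGALS9B and LGALS9C were identical at 244 of 245 aligned bases (99.6%), and that of LGALS9 matched them at 96.3% and 97.1% of aligned bases. AGGTCA stood in all 3, from base -147 to -142 before the start site in LGALS9, from -154 to -149 in LGALS9B and from -159 to -154 in LGALS9C. AGTTCA stood only in LGALS9B, from -106 to -101, and in LGALS9C, from -111 to -106, among these 3 genes. Of all 35116 RefSeq promoters cut to the same length, 12.1% held AGGTCA and 8.80% held AGTTCA. The direct repeat of such hexamers with a spacer of 3 bases, known as DR3, stood in 23 promoters (0.0655%) and in none of the galectin windows searched. A match of letters is a description and not a binding site, and no match says only that these letters are not in this window.

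LGALS9B had 8, 8 and 0 reads in the control libraries and 1039, 1216 and 900 reads in the 25(OH)D libraries. LGALS9C had 2, 0 and 1 reads in control and 443, 547 and 415 in 25(OH)D. LGALS9, the parent gene, had 2, 2 and 8 reads in control and 76, 103 and 54 in 25(OH)D. For each of these genes every 25(OH)D library lay above every control library, and the control libraries stood at or close to the floor. LGALS9B went from 0.135 ± 0.117 to 29.6 ± 2.00 CPM (SD, n = 3 each), and the log2 fold change was 7.72 (SE, the standard error, 0.239). LGALS9 went from 0.106 ± 0.0963 to 2.17 ± 0.511 CPM, a log2 fold change of 4.35 (SE 0.449). Control replicate 3 held 8 of its 12 control reads, and without that library its log2 fold change was 5.35. As a difference of log2(RPKM + 1), a scale that shrinks changes at low levels, it was 0.43. LGALS9C, whose control libraries had no more than 3 reads each, was at least 170-fold higher, taken against 3 reads in each control library.

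**Figure D1:**
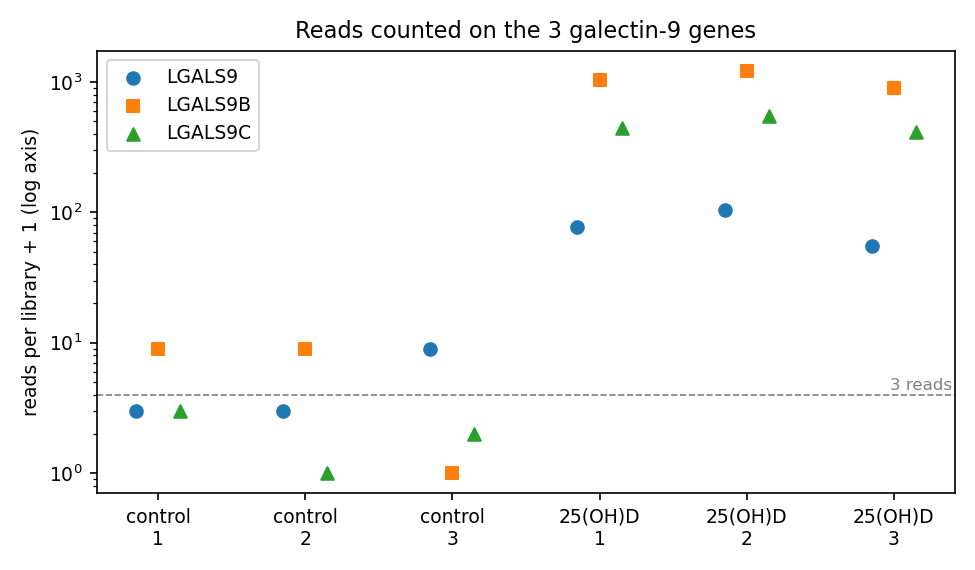
Reads counted on LGALS9, LGALS9B and LGALS9C in each of the 6 libraries, drawn as reads + 1 on a log axis with the floor of 3 reads dashed. The control points lie at 8 reads or fewer, and the 25(OH)D points lie between 54 reads (LGALS9) and 1216 reads (LGALS9B).

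The copies share much of their sequence, so how reads were divided among them matters. The longest coding sequences of LGALS9B and LGALS9C (GENCODE 29) were identical at 1063 of 1068 bases, with an unbroken identical run of 462 bases. LGALS9 was identical to them at 96.3% and 95.9% of aligned coding bases, and its longest identical run with either was 96 bases, shorter than a read of 150 bases. Of the 150-base stretches in transcripts of LGALS9B, 25.3% also occur in LGALS9C, and these are 11.98% of the stretches of LGALS9C. None of the stretches of LGALS9 occur in either copy, and 3.37% occur in transcripts of other loci, AC015688.4 and the pseudogene LGALS9DP. The values of LGALS9B and LGALS9C are therefore uncertain as a split, since how the counting treated reads with more than 1 match is not given in the sources used here. The stretches are exact matches of full read length. Whether reads of the copies that were shorter or held mismatches were counted on LGALS9 was not tested, so its own value is also uncertain.

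Summed as 1 unit, the 3 genes had 12, 10 and 9 reads in control and 1558, 1866 and 1369 reads in 25(OH)D. The sum was 0.266 ± 0.0219 CPM in control and 45.0 ± 3.31 CPM in 25(OH)D (SD, n = 3 each), a ratio of 169. Within the sum, LGALS9B held between 65.2% and 66.7% of the reads in the 25(OH)D libraries, LGALS9C between 28.4% and 30.3%, and LGALS9 between 3.94% and 5.52%. These shares differed little between the 3 libraries, and in control they rest on 12 reads or fewer. LGALS9 also shares 294 of its 5714 exon bases with AC015688.3 on the same strand, and AC015688.3 shares 432 of its 730 exon bases with KSR1. AC015688.3 had 2, 4 and 10 reads in control and 60, 67 and 29 reads in 25(OH)D, a log2 fold change of 3.36 (SE 0.508). It passed the low-count filter only through the 25(OH)D libraries, so its difference is also given as a description. The log2 fold change of KSR1 was -0.056 (adjusted p = 0.937, edgeR).

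LGALS8 (chromosome 1, 236518000 to 236552981, plus strand) had the highest level of the family per length in each of the 6 libraries. Galectin-8 binds integrins and brings the autophagy receptor CALCOCO2 to broken endosomes. LGALS8 had 264, 265 and 259 CPM in control and 223, 232 and 212 CPM in 25(OH)D. All 25(OH)D libraries lay below all control libraries, although the distance was small beside the level. The log2 fold change was -0.24 (SE 0.0409), a fall by 15.4%. LGALS8 shares 2095 of its 9710 exon bases with HEATR1 and 673 with LGALS8-AS1, both on the opposite strand. The library kit keeps the strand, but the strand setting of the counting is not given in the sources used here, so reads of these genes may not be fully separate. HEATR1, a factor of ribosome production, fell with a log2 fold change of -0.22 (SE 0.0447, adjusted p = 0.00145, edgeR). RP11-385F5.4, which also overlaps LGALS8, had a log2 fold change of -0.27 (adjusted p = 0.0720), and its adjusted p passed under 5 of the alternatives, down to 0.0209 without control replicate 1.

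LGALS3 (chromosome 14, 55124110 to 55145413, plus strand) had 14.7, 13.6 and 12.6 CPM in control and 9.98, 12.1 and 11.0 CPM in 25(OH)D. The groups did not overlap, but the lowest control library and the highest 25(OH)D library lay closer to each other than 1 SD of either group. The log2 fold change was -0.31 (SE 0.0983), from 13.6 ± 1.04 to 11.0 ± 1.08 CPM (SD, n = 3 each). LGALS1 (chromosome 22, 37675608 to 37679806, plus strand) had 6.41, 5.21 and 6.002 CPM in control and 5.15, 4.37 and 5.98 CPM in 25(OH)D. In bulk RNA, fewer cells that express a gene and less RNA per cell cannot be told apart. The groups of LGALS1 overlapped, so the difference, a log2 fold change of -0.19 (SE 0.144), was not larger than the spread between libraries. LGALSL (chromosome 2, 64453969 to 64461381, plus strand) had 5.55, 5.66 and 4.75 CPM in control and 2.50, 3.46 and 2.73 CPM in 25(OH)D. The groups stood well apart, and the log2 fold change was -0.87 (SE 0.160), a fall by 45.4% and the largest fall among the family members tested.

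LGALS3BP (chromosome 17, 78971238 to 78980109, minus strand) moved the other way. It had 7.37, 7.01 and 6.49 CPM in control and 11.0, 13.8 and 11.3 CPM in 25(OH)D. Every 25(OH)D library lay above every control library, with 25(OH)D replicate 2 the highest. The mean went from 6.96 ± 0.443 to 12.04 ± 1.54 CPM (SD, n = 3 each), and the log2 fold change was 0.79 (SE 0.112) or 1.73-fold. LGALS3BP is also known to respond to interferon, and its promoter is shown for that reason, since genes of the interferon response rose in these libraries, as given further on. The 250 bases cover chr17:78979924-78980173 on the minus strand of GRCh38.p14 (RefSeq), and capitals mark a match to GAAA, NN and GAAA in a row, the core of the interferon-stimulated response element, searched on both strands.
LGALS3BP: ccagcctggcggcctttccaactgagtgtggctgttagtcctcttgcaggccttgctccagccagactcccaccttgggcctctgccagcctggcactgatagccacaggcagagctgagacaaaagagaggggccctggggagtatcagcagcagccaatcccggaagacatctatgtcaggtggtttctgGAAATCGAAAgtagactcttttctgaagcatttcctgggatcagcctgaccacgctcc

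The match lies from base -58 to -49 before the RefSeq start site, and the window lies partly inside the counted span of LGALS3BP. These letters stood in 3.02% of the 35116 promoters of this length and, within the galectin family, in LGALS3BP alone of the genes with a RefSeq promoter entry. The galectin-9 windows held no such match.

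LGALS4 (chromosome 19, 38801671 to 38813364, minus strand), which is best known from the gut, had 4, 0 and 0 reads in control and 0, 1 and 0 reads in 25(OH)D. LGALS7 (chromosome 19, 38770971 to 38773492, minus strand), known from stratified epithelium, had 0 reads in each control library and 0, 0 and 1 reads in 25(OH)D. Neither passed the low-count filter, and no fold was computed. A level under the floor of about 3 reads per library was not detectable at this depth. Of the 150-base stretches of LGALS7, 26.8% also occur in its copy LGALS7B.

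**Figure D2:**
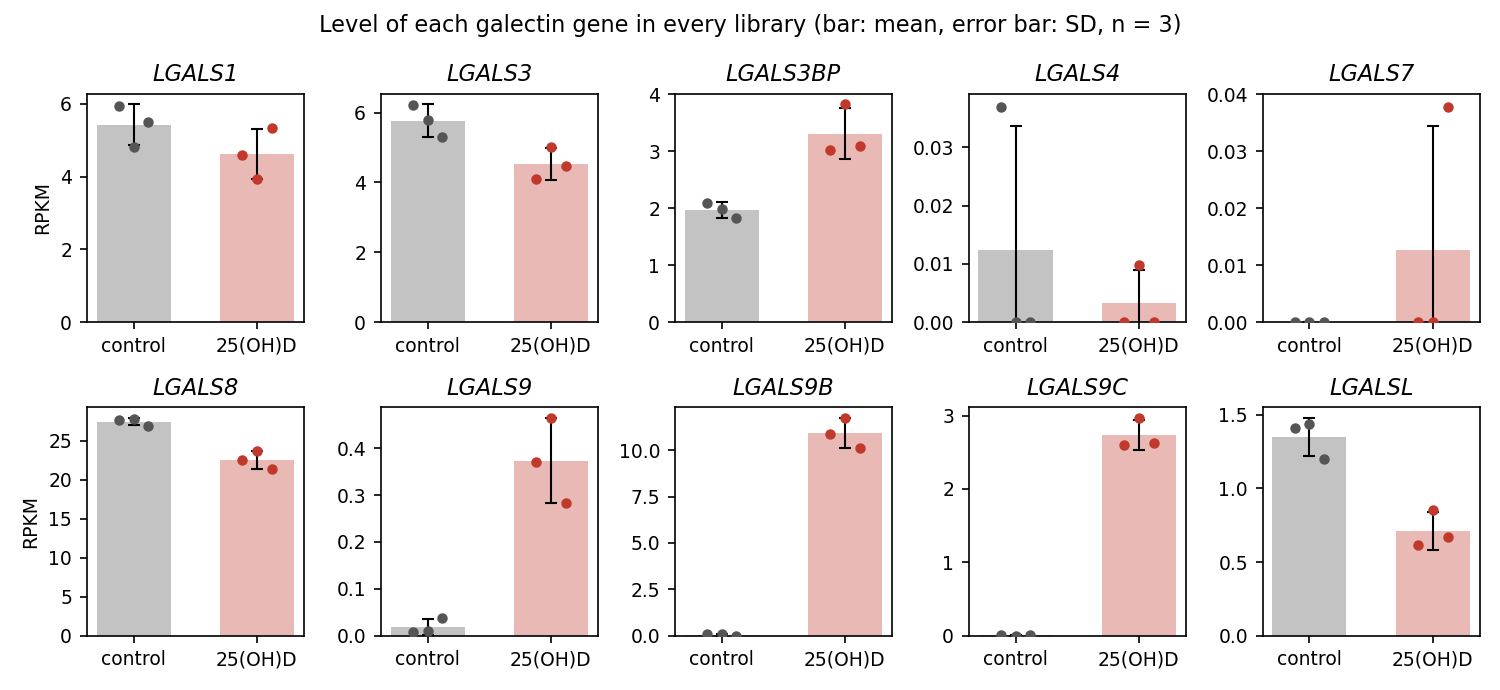
RPKM of each of the 10 galectin genes in the 6 libraries, with a separate linear axis for each gene that starts at 0. Points are libraries, bars are means and error bars are SD (n = 3 per group). LGALS9, LGALS9B, LGALS9C and LGALS3BP lie higher in 25(OH)D, LGALS3, LGALS8 and LGALSL lie lower, LGALS1 overlaps, and LGALS4 and LGALS7 rest on 4 reads or fewer.

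Of the 8 galectin genes tested, 4 were higher and 3 were lower in 25(OH)D at an adjusted p under 0.05, against 17.3% of all 18183 genes tested that were higher and 16.5% that were lower. With the limits of 1 on the absolute log2 scale and 0.05 on the unadjusted p, 3 were higher, the galectin-9 genes, and 0 were lower, against 4.02% and 2.63% of all genes tested. The groups did not overlap for 7 of the 8 genes, against 45.7% of all genes tested. With DESeq2, 2 members were lower. The list was drawn up with this contrast known, and nothing is read from these counts. The median log2 fold change was -0.24 over the 5 tested genes outside the galectin-9 group, against -0.011 over all genes tested.

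Compared per length, as RPKM (reads per kilobase of gene, scaled to the library total), the order in control was LGALS8 at 27.4 ± 0.471, LGALS3 at 5.77 ± 0.461, LGALS1 at 5.42 ± 0.563, LGALS3BP at 1.97 ± 0.134 and LGALSL at 1.35 ± 0.131 (SD, n = 3). The neighbours LGALS3 and LGALS1 did not differ beyond their spread. The other genes stood at 0.0513 RPKM or below, and their order is not resolved. In 25(OH)D the order was LGALS8 at 22.5 ± 1.17, LGALS9B at 10.9 ± 0.809, LGALS1 at 4.62 ± 0.696, LGALS3 at 4.53 ± 0.472, LGALS3BP at 3.31 ± 0.447, LGALS9C at 2.73 ± 0.206, LGALSL at 0.713 ± 0.128 and LGALS9 at 0.373 ± 0.0905. Only LGALS1 and LGALS3 overlapped among neighbours of these 8 genes. LGALS9B thus held rank 2 of the family in each 25(OH)D library, although its gene model of 2670 bases is shorter than that of LGALS9C with 4754 bases, which raises its RPKM relative to LGALS9C. The ranks of LGALS9B and LGALS9C also rest on the split of reads between them, which is uncertain as given above.

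The galectin-9 genes together made up between 0.108% and 0.215% of the family's summed RPKM in control and between 27.2% and 28.9% in 25(OH)D. LGALS8 made up between 63.6% and 66.3% in control and between 44.5% and 46.2% in 25(OH)D. The summed RPKM of the other 7 genes went from between 40.7 and 43.3 in control to between 34.8 and 37.4 in 25(OH)D, without overlap.

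**Figure D3:**
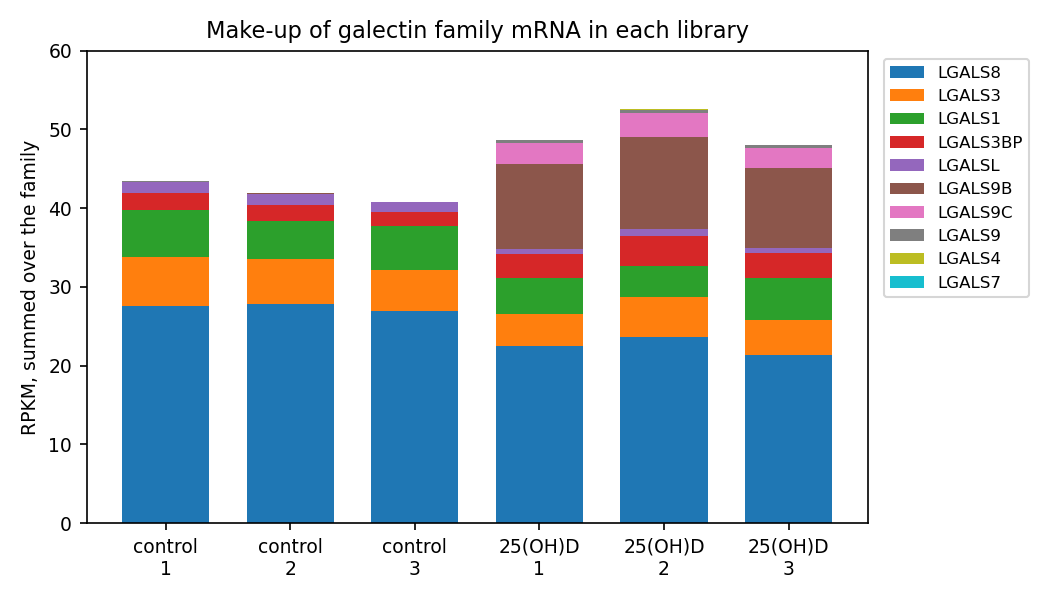
RPKM of the 10 galectin genes stacked for each of the 6 libraries. The control libraries reach between 40.8 and 43.4 RPKM with LGALS8 as the largest part, and the 25(OH)D libraries reach between 48.0 and 52.5 RPKM with LGALS9B and LGALS9C added.

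For the 3 tested members with the highest mean CPM outside the galectin-9 genes, which by this scale, not divided by length, were LGALS8, LGALS3 and LGALS3BP, the genes of the most similar pattern were found by the Euclidean distance of centred log2 CPM over the 6 libraries, among 13851 other genes with a symbol. Nearest to LGALS8 were RBM15B (distance 0.0350), PAICS (0.0410) and GTF2F2 (0.0435), against a median distance of 0.511. Nearest to LGALS3 were ZNF256 (distance 0.0484), MCAT (0.0893) and HMMR-AS1 (0.111). Among the nearest to LGALS3BP were IGFBP2 (distance 0.146) and PRKAA1 (0.184), against a median of 1.10. The distances describe these 6 libraries only.

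Of 10 other galectin genes looked for, 3 were listed, and the other 7 were not analysed here. LGALS2 had 2, 0 and 0 reads in control and 3, 0 and 0 in 25(OH)D, and GRIFIN, a galectin of the lens, had at most 2 reads. LGALS8-AS1, a transcript antisense to LGALS8, was the only one tested. Its level fell, from 12.9 ± 0.710 in control to 9.13 ± 1.11 CPM in 25(OH)D (SD, n = 3 each), and the log2 fold change was -0.49 (SE 0.103, adjusted p = 0.00182, edgeR). Of its 1457 exon bases, 673 are shared with LGALS8 on the opposite strand.

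The mRNAs of proteins that galectins bind at the cell surface included some that rose and some that fell. Of 41 genes in a list of galectin counter-receptors, 26 were tested, of which 11 rose, 3 fell and 12 did not pass the test, against 17.3% of all genes tested that were higher and 16.5% that were lower. The median log2 fold change of the list was 0.17. Among those that rose, ALCAM, an adhesion molecule bound by galectin-8, went from 267 ± 1.58 to 470 ± 3.04 CPM (log2 fold change 0.82, SE 0.0338, adjusted p = 1.78e-10). P4HB, a protein disulfide isomerase that galectin-9 binds on T cells, went from 424 ± 4.20 to 584 ± 14.9 CPM (log2 fold change 0.46, adjusted p = 1.25e-07), and NRP1, a receptor of galectin-1, from 9.94 ± 0.964 to 21.2 ± 1.37 CPM (log2 fold change 1.09, adjusted p = 3.60e-07). P4HB shares 529 of 5303 exon bases on the opposite strand with RP11-498C9.2, whose log2 fold change was 0.38. NRP1 shares 561 of 11522 with RP11-342D11.2 (log2 fold change 0.78), also on the opposite strand. SLC3A2, the heavy chain of CD98 and a ligand of galectin-3, fell from 148 ± 4.41 to 103 ± 3.41 CPM (log2 fold change -0.52, adjusted p = 4.13e-07). ITGA6, an integrin subunit, fell with a log2 fold change of -0.53 (SE 0.0736, adjusted p = 6.46e-05). It shares exon bases on the opposite strand with AC078883.4, AC078883.3 and AC093818.1, whose log2 fold changes were -0.40, -0.62 and -0.33. The fall of a further integrin subunit, ITGA3, was small (log2 fold change -0.12, adjusted p = 0.0428) and its adjusted p was over 0.05 when any of the 6 libraries was left out, where it lay between 0.0851 and 0.170. HAVCR2, which encodes TIM-3 and was singled out after its values were seen, had 7.18, 6.85 and 5.81 CPM in control and 5.49, 5.98 and 3.71 CPM in 25(OH)D (log2 fold change -0.38, adjusted p = 0.0909), and its groups overlapped. The p-values of the lists were computed by edgeR and adjusted by the Benjamini-Hochberg method over all genes tested, SD values have n = 3, and the lists were drawn up with earlier results of these data known.

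Of 39 genes for the enzymes and transporters that build the branched and galactose-ended glycans galectins bind, 33 were tested, of which 10 rose, 4 fell and 19 did not pass (42.4% called, against 33.8% of all genes tested). The median log2 fold change of the list was 0.21. SLC35A3, which carries UDP-N-acetylglucosamine into the Golgi, rose from 35.3 ± 0.926 to 83.2 ± 1.21 CPM (log2 fold change 1.24, SE 0.0501, adjusted p = 1.43e-10). MAN2A1, a mannosidase that opens the way to branched N-glycans, rose with a log2 fold change of 0.53 (adjusted p = 2.42e-05), and C1GALT1, which makes the core of mucin-type O-glycans, with 0.56 (adjusted p = 3.43e-04). The 3 with the smallest p among those that fell included a pair of sialyltransferases that add sialic acid to galactose. ST3GAL4 fell from 8.66 ± 1.07 to 3.49 ± 0.250 CPM (log2 fold change -1.31, SE 0.134, adjusted p = 2.82e-06) and ST3GAL6 from 4.26 ± 0.922 to 1.80 ± 0.453 CPM (log2 fold change -1.25, SE 0.218, adjusted p = 4.63e-04). GCNT1, which branches O-glycans, fell with a log2 fold change of -0.87 (adjusted p = 0.00847).

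Galectins that meet broken lysosomes and endosomes act with autophagy receptors, the ESCRT repair machinery and regulators of mTOR and AMPK. Of 42 such genes, 40 were tested, of which 9 rose, 5 fell and 26 did not pass, against 33.8% of all genes tested that were called in either direction. PDCD6, a calcium-binding partner of the ESCRT machinery, rose from 45.8 ± 1.20 to 123 ± 6.01 CPM (log2 fold change 1.43, SE 0.0509, adjusted p = 3.30e-11), and it shares 244 of 9493 exon bases on the same strand with AHRR, whose log2 fold change was 2.16. PRKAA1, a catalytic subunit of AMPK, rose with a log2 fold change of 0.78 (adjusted p = 8.70e-08) and TAX1BP1, an autophagy receptor, with 0.33 (adjusted p = 1.06e-05). PRKAA2, the other catalytic subunit of AMPK, was among the 5 that fell. Of the LAMTOR genes, LAMTOR2 and LAMTOR4 were among those that rose and LAMTOR5 among those that fell. CALCOCO2 fell slightly, from 429 ± 5.59 to 393 ± 2.92 CPM (log2 fold change -0.13, adjusted p = 0.00983), and TSG101, an ESCRT subunit, with a log2 fold change of -0.18 (adjusted p = 0.0124). The call of CALCOCO2 was lost without 25(OH)D replicate 2 (adjusted p = 0.0527), and that of TSG101 without control replicate 2 (0.0512) or 25(OH)D replicate 1 (0.0661). FBXO2, which recognises sugars on misfolded glycoproteins, fell from 2.37 ± 0.969 to 0.765 ± 0.179 CPM (log2 fold change -1.64, adjusted p = 0.00117). It shares 267 of 2333 exon bases on the opposite strand with FBXO44, whose log2 fold change was -1.05.

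Genes that respond to interferon, a setting in which LGALS9 and LGALS3BP are known to be induced, moved mostly upwards. Of 46 genes in the list, 40 were tested, of which 31 rose, 0 fell and 9 did not pass, against 17.3% of all genes tested that were higher. The count of 0 also held at an unadjusted p under 0.05 in edgeR and at an adjusted p under 0.05 in DESeq2. The median log2 fold change was 0.61. IFI6 rose from 56.2 ± 7.38 to 142 ± 0.741 CPM (log2 fold change 1.34, adjusted p = 3.21e-09), ISG15, a ubiquitin-like modifier, from 52.9 ± 6.59 to 122 ± 10.6 CPM (log2 fold change 1.20, adjusted p = 3.83e-08), and HERC6, a HECT-type ubiquitin ligase, from 18.9 ± 2.07 to 43.9 ± 4.95 CPM (log2 fold change 1.22, adjusted p = 1.40e-07). The part of the interferon genes in the difference of LGALS3BP was not tested.

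**Figure D4:**
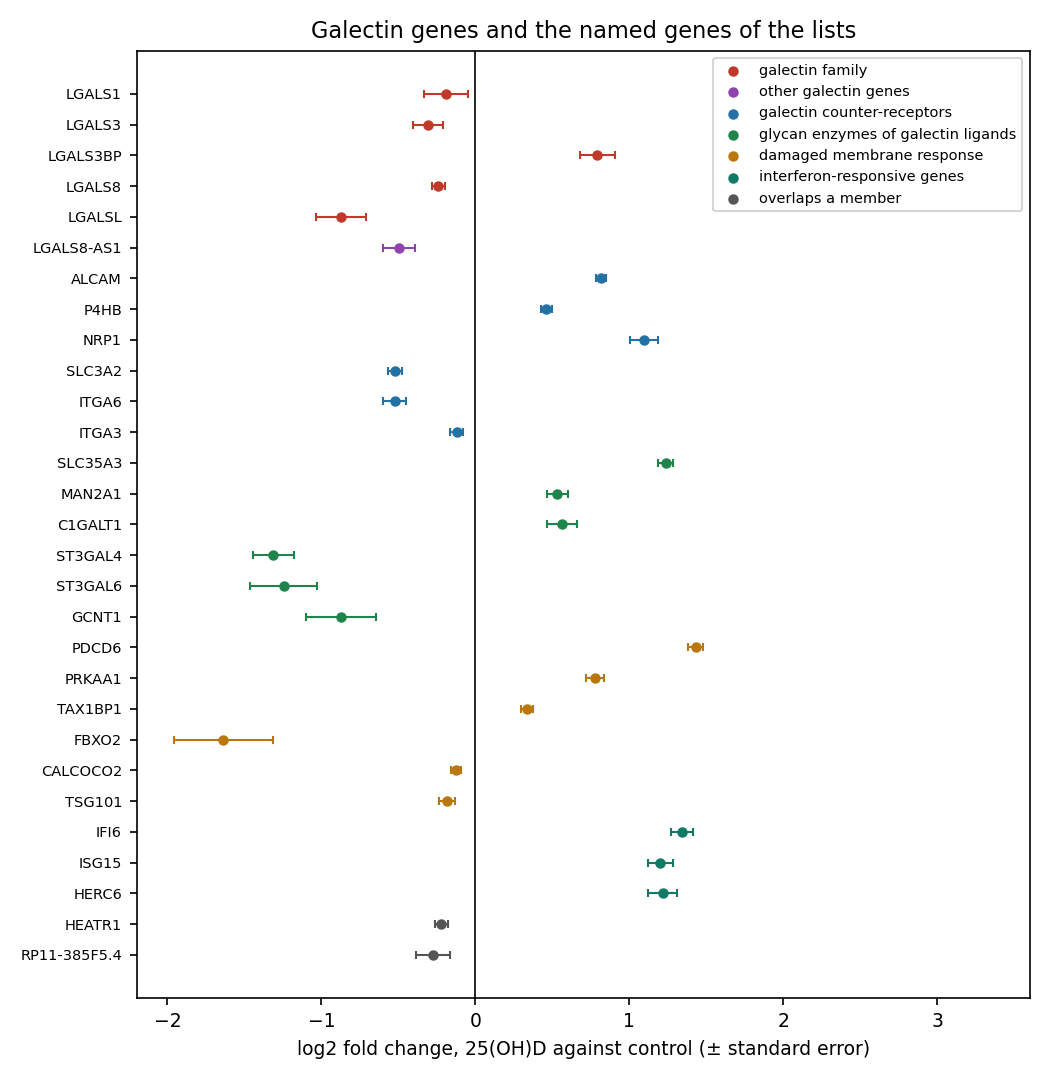
Log2 fold change of 25(OH)D against control with its standard error, from edgeR, for the tested galectin genes outside the galectin-9 group and the named genes of the lists, coloured by list. The members drawn lie between -0.87 (LGALSL) and 0.79 (LGALS3BP). The named interferon genes, chosen for the smallest p among those that rose, lie above 1. The median of their list was 0.61. AC015688.3 and the galectin-9 genes are not drawn.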

How the data were processed

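The mRNA of MDA-MB-453 cells was sequenced as paired reads of 150 bases in 6 libraries, 3 per group, which were assigned to groups and replicates from the sample titles. The authors deposited raw read counts per gene, and RPKM values equal to the counts per kilobase of gene length, scaled to the library total. The processing notes of the submitters name Trimmomatic 0.36, featureCounts of Subread 1.5.1, edgeR 3.12.1 and GRCh38. The aligner, the annotation release and the settings for strand and multiple matches are not given in the sources used here. The spans of all 13 galectin genes in the table equal those of GENCODE 29. Of counts from 1 to 20, 67.2% were even, against 52.3% of counts from 201 to 1000, and whether mates were counted separately is not given, so a low count may stand for fewer fragments.

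Counts were fitted with edgeR 4.0.16 in R 4.3.3, with TMM factors, the default low-count filter (minimum count 10) and, with no covariates, its quasi-likelihood test between the groups, over 18183 genes with Benjamini-Hochberg adjustment. On data simulated for this comparison over 18155 genes, 191 of 200 genes with a log2 change of 1 were recovered, with 12 false calls. The 200 genes were drawn among those with a mean of at least 50 counts, so recovery at lower counts was not tested. Levels between genes were compared as RPKM. Shared stretches were counted on GENCODE 29 transcripts, coding sequences were aligned with Biopython 1.88, and promoters were the 250 bases before RefSeq start sites. Alternatives were RLE factors, library sizes alone, no filter, a mean of at least 50 counts, DESeq2 1.42.0, a replicate block, limma 3.58.1 on log2(RPKM + 1) and log2(RPKM + 0.1), limits on fold change, and each library left out.

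The members and lists were chosen with earlier results of these data known. The named genes were all members, the other galectin genes listed, genes sharing exon bases with a member, the 3 genes with the smallest p in each direction among those past the threshold in each of the other 4 lists, and the 3 genes nearest in pattern to each of the 3 tested members with the highest mean CPM outside the galectin-9 genes, of which 1 is not reported here. Lists were described by counts, with no set test. Of the named genes of the lists, ISG15, SLC35A3, ST3GAL6, TAX1BP1 and TSG101 also share exon bases with other genes, which was not examined further. Protein sequences were not used here.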

Additional observations from a re-analysis of the deposited data

How the results depend on the processing

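Members kept their direction under every alternative that could be fitted, and 100 of 111 of their alternative values lay within 1 SD of the value given. The other 11 were on the RPKM scales (LGALS3BP, LGALSL and the galectin-9 genes) or for LGALS9 and LGALS9C with a control library left out. With limits on fold change and unadjusted p in place of the adjusted p, 0 members were lower, the counter-receptors had 3 higher and 1 lower, the glycan genes 3 and 2, the membrane damage genes 1 and 1, the interferon genes 10 higher, and LGALS8-AS1 was not called (0). With DESeq2 the membrane damage genes had 3 lower, and with the replicate block also 3. The deviations of same-numbered libraries correlated between -0.072 and -0.012 over 18183 genes. This shows no sign that the replicate numbers pair the samples, but it cannot exclude pairing, and the labels do not state it. The block moved no other count of calls by over 1.5 times. Among named genes it ended the call of ITGA3 (adjusted p = 0.0588) and called RP11-385F5.4 (0.0321).

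Leaving out each library, the members called lower were between 2 and 3, the counter-receptors called lower between 2 and 5 (5 without 25(OH)D replicate 3), the membrane damage genes called lower between 2 and 6, and the interferon genes called lower between 0 and 1 (1 without 25(OH)D replicate 1). The count for membrane damage was 3 without control replicate 1, and 2 without control replicate 2, 25(OH)D replicate 1 or 25(OH)D replicate 2. The ratio of the summed galectin-9 genes lay between 162 and 177 with each library left out. For each gene alone it was 20.4 for LGALS9 and 220.005 for LGALS9B. The cause of these shifts was not tested. Depth limits LGALS4, LGALS7 and the control values of the galectin-9 genes.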

Other observations

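The nearest tested gene with a symbol on each side of every tested member was examined, 16 neighbours in all. Genes that overlap a member, such as HEATR1 at LGALS8, were left out. The rule was set after the data were examined and uses position only. At an adjusted p under 0.05 (edgeR's quasi-likelihood test), 2 neighbours were higher and 5 were lower, against 17.3% and 16.5% of all genes tested. KRT16P3, a pseudogene of keratin 16 that lies 34.0 kb from LGALS9B, had 0, 0 and 2 reads in control and 25, 56 and 64 reads in 25(OH)D. This was at least 17.7-fold higher when taken against 3 reads in each control library. KRT16P3 is among the neighbours counted as higher, but it passed the low-count filter only through the 25(OH)D libraries. Its difference is therefore given as a description, without a p-value. The keratin gene KRT16, on another part of the chromosome, is not a neighbour under this rule and was singled out after the data were examined. KRT16 rose from 14, 14 and 20 reads to 100, 118 and 110 reads, with a log2 fold change of 2.89 (adjusted p = 7.14e-07). Of the 150-base stretches of KRT16P3, 30.1% also occur in KRT16P1 and 0.0801% in KRT16. On the other side of LGALS9B, USP32P3 had a log2 fold change of 0.74 (adjusted p = 0.125).

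Neither tested neighbour of LGALS9C was higher in 25(OH)D. EVPLL, 87.1 kb away, fell with a log2 fold change of -0.69 (adjusted p = 0.00553), and ZNF286B had -0.21 (adjusted p = 0.284). The pseudogene KRT16P1 lies between EVPLL and LGALS9C, nearer to LGALS9C than EVPLL, and was not tested. It had 0, 0 and 0 reads in control and 8, 6 and 0 reads in 25(OH)D. Beside LGALS3, DLGAP5, a spindle protein 2.70 kb away on the opposite strand, fell from 95.8 to 59.2 CPM (log2 fold change -0.70, adjusted p = 3.10e-07). On one side of LGALS8, ACTN2, which encodes an actinin of muscle, lies 133 kb away, past the overlapping HEATR1. ACTN2 fell from 47.8 to 26.1 CPM (log2 fold change -0.87, adjusted p = 2.60e-07).

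Another group of counter-receptor genes had large fold changes at low levels, and these genes were singled out after their values were seen. TGFBR2, a receptor of TGF-beta that galectins bind, had 18, 18 and 22 reads in control and 120, 116 and 142 reads in 25(OH)D (log2 fold change 2.84, adjusted p = 5.95e-07). MUC1, a membrane mucin bound by galectin-3, had 13, 16 and 13 reads in control and 29, 45 and 36 reads in 25(OH)D (log2 fold change 1.51, adjusted p = 0.00426).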
